A study of Mus musculus with 6 samples.

Results

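Scx, Mkx and Tnmd are 3 genes known from tendon that were selected by symbol, and all 3 were found among the 37309 genes measured in fetal aortic smooth muscle. Scx and Mkx rose and Tnmd fell in the Jag1 knockout libraries against wildtype, by log2 changes of 2.35 ± 0.24, 0.99 ± 0.16 and -1.41 ± 0.22 (SE, n = 2 libraries per group). The heterozygous libraries lay between the other groups for each of the 3 genes.

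Scleraxis, the product of Scx, is a basic helix-loop-helix transcription factor that marks tendon and ligament progenitors and binds E-box sequences as a dimer with E proteins. Mohawk, the product of Mkx, is an atypical homeobox factor of the TALE group that acts in tendon and is needed for normal collagen fibres there. Tenomodulin, the product of Tnmd, is a type II transmembrane protein of mature tendon cells with a BRICHOS domain, and in mouse tendon its transcription depends on scleraxis. Tendon and cartilage progenitors both arise in the sclerotome and limb mesenchyme, and Scx is also active in developing heart valves.

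The 6 RNA libraries came from mouse vascular smooth muscle cells taken at embryonic day 14.5, with descending aorta as the labelled tissue. The 2 wildtype libraries carried lox/lox Jag1 alleles and no Cre, the 2 heterozygous libraries carried lox/+ alleles with Cre, and the 2 knockout libraries carried lox/lox alleles with Cre. Cre was absent from wildtype and shared by knockout and heterozygous libraries, so any comparison with wildtype changes Cre as well as Jag1. The Cre driver, the deleted exons, the number of embryos per library and whether replicates were separate animals are not given in the sources used here, so p values measure only the spread between these libraries.

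Values are scaled read counts, which are reads per gene divided by 1 size factor per library. Libraries held 17323962 to 28123670 reads in genes, and 1 read was worth 0.774 to 1.22 scaled units. Jag1, which encodes a ligand of the Notch receptors, stood at 1965 and 1885 in wildtype, at 492 and 584 in heterozygotes and at 19.9 and 35.4 in knockouts. The smooth muscle genes Acta2 and Myh11 were abundant in every library, at 79074 to 120179 and 1653 to 3851. The knockout libraries differed most from each other, with a chi-square per gene over counting error of 23.5 against 5.07 in wildtype and 3.75 in heterozygous. For Scx, Mkx and Tnmd, values without each of them are therefore given where they change a call. Counts of list genes passing also moved without single libraries, and not all of these counts are given. Transcripts of 4 Y-linked genes were at 0.906 to 12.2 in the knockout libraries and at 172 to 1207 in the other groups, while Xist, which is made from the inactive X, was at 3329 to 5785 in every library. All 4 Y-linked genes fell and Xist rose in knockout against wildtype and in knockout against heterozygous. The share of male cells therefore differed in both comparisons, and its part in the differences of Scx, Mkx and Tnmd was not tested.

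The promoter of Tnmd is shown. No promoter of Scx was in the reference used, and that of Mkx is not shown. The RefSeq window on the forward strand of GRCm38.p6 spans chrX:133850758-133851057, a build other than the mm9 named for the deposited table, and capitals mark the 50 bases from the annotated transcription start onward.
Tnmd promoter: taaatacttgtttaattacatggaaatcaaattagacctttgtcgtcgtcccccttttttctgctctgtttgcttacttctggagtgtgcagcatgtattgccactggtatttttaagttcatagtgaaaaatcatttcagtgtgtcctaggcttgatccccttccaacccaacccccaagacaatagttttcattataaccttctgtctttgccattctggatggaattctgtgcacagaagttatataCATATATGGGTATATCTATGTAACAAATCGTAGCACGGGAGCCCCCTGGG
The E-box CANNTG, searched on both strands, had 0 matches in these 300 bases, whereas 72.3% of 32851 RefSeq promoter windows of the same length held at least 1. TGGGAA, the core of the motif bound by the Notch effector RBPJ, also had 0 matches on either strand, and 25.6% of the windows held it. These letters are not in this window, and nothing is known from that about binding elsewhere.

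Scx (ENSMUSG00000034161, chromosome 15) was the least abundant of the 3 genes in wildtype. Its level was 15.5 and 16.7 in wildtype replicates 1 and 2, against 42.9 and 49.3 in heterozygous and 97.0 and 77.0 in knockout replicates. The wildtype values came from 20 and 16 reads, with exact 95% Poisson intervals of 9.46 to 23.9 and 9.56 to 27.2 scaled units that cover counting error only. Every heterozygous library was above both wildtype libraries and every knockout library above both heterozygous libraries. In knockout against wildtype the level was 5.40 times higher (log2 change 2.35 ± 0.24, adjusted p = 0.000251, limma), and the 95% interval of the change was 1.81 to 2.90. In bulk RNA, more cells with Scx transcripts and more Scx transcripts per cell cannot be told apart.

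Scx also rose in heterozygous against wildtype, by 1.46 ± 0.24 (adjusted p = 0.00558), and in knockout against heterozygous, where Cre was present on both sides, by 0.90 ± 0.24 (adjusted p = 0.0403). The share of male cells differed between knockout and heterozygous libraries as well. The knockout against wildtype call held in all 13 alternatives, with log2 changes of 2.12 to 2.52 and adjusted p from 3.16e-07 to 0.00553. The heterozygous call was lost without wildtype replicate 1 (adjusted p = 0.0639), heterozygous replicate 1 (0.0587) or heterozygous replicate 2 (0.0898). The call on knockout against heterozygous was lost without wildtype replicate 1 (0.0733), wildtype replicate 2 (0.0742), heterozygous replicate 1 (0.264), heterozygous replicate 2 (0.153) or knockout replicate 1 (0.114), with a log2 change of 0.73 in the last.

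Scx lies within Bop1, a ribosome biogenesis gene on the opposite strand, in the GENCODE annotation, and the strand setting of the authors' counting is not given in the sources used here. Bop1 was at 1093 and 1023 in wildtype, at 1021 and 963 in heterozygous and at 1093 and 1170 in knockout libraries. The knockout values were above the wildtype values, the lower knockout library by less than 1 read, and the log2 change of 0.10 ± 0.10 did not pass (adjusted p = 0.602, limma). The neighbours Hsf1, the heat shock factor, and Dgat1, a triglyceride synthesis enzyme, had changes of 0.06 ± 0.14 and -0.04 ± 0.12 in the same comparison and did not pass.

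Mkx (ENSMUSG00000061013, chromosome 18) was at 96.8 and 89.9 in wildtype replicates 1 and 2, at 118 and 135 in heterozygous and at 201 and 172 in knockout replicates. The 3 groups did not overlap and stood in the same order as for Scx, over a narrower range. Knockout was 2.00 times wildtype (log2 change 0.99 ± 0.16, adjusted p = 0.00349, limma), with a 95% interval of 0.62 to 1.36. This call held in all 13 alternatives, with log2 changes of 0.88 to 1.10 and a highest adjusted p of 0.0497.

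The smaller steps of Mkx did not pass. Heterozygous over wildtype was 0.43 ± 0.16 (adjusted p = 0.182, 95% interval 0.06 to 0.80), and knockout over heterozygous was 0.56 ± 0.16 (adjusted p = 0.0547, 95% interval 0.19 to 0.93). The heterozygous step passed without knockout replicate 1 (adjusted p = 0.0469) or knockout replicate 2 (0.0424), and the knockout over heterozygous step passed without knockout replicate 2 (0.00482). Of the neighbouring genes, Rab18, a small GTPase, had a log2 change of 0.06 ± 0.09 and Mpp7, a membrane scaffold, 0.12 ± 0.18 in knockout against wildtype, and neither passed.

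Tnmd (ENSMUSG00000031250, chromosome X) moved the other way. Wildtype replicates 1 and 2 held 152 and 187, heterozygous replicates 92.1 and 111, and knockout replicates 51.7 and 75.8. Each heterozygous library was below both wildtype libraries and each knockout library was below both heterozygous libraries. The knockout level was 37.6% of wildtype (log2 change -1.41 ± 0.22, adjusted p = 0.00271, limma), with a 95% interval of -1.92 to -0.91, and the call held in all 13 alternatives (-1.69 to -1.14, highest adjusted p = 0.0477).

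The separate steps of Tnmd were -0.73 ± 0.22 in heterozygous against wildtype (adjusted p = 0.0884) and -0.68 ± 0.22 in knockout against heterozygous (adjusted p = 0.0838), and neither passed. The first passed without knockout replicate 1 (adjusted p = 0.00107) or knockout replicate 2 (0.00126). The second was -0.95 and passed without knockout replicate 2 (0.000424), and was -0.41 without knockout replicate 1. Since Tnmd is X-linked and Y-linked transcripts were near 0 in the knockout libraries, the rest of chromosome X is given beside it: 32 of its 660 tested genes (4.85%) fell and 40 rose in knockout against wildtype, with a median log2 change of 0.01. The nearest genes on either side were Pcdh19, a protocadherin, at 0.31 ± 0.09 (adjusted p = 0.0471), and Tspan6, a tetraspanin, at 0.01 ± 0.12 (adjusted p = 0.983). The part of embryo sex in the Tnmd difference was not tested.

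**Figure D1:**
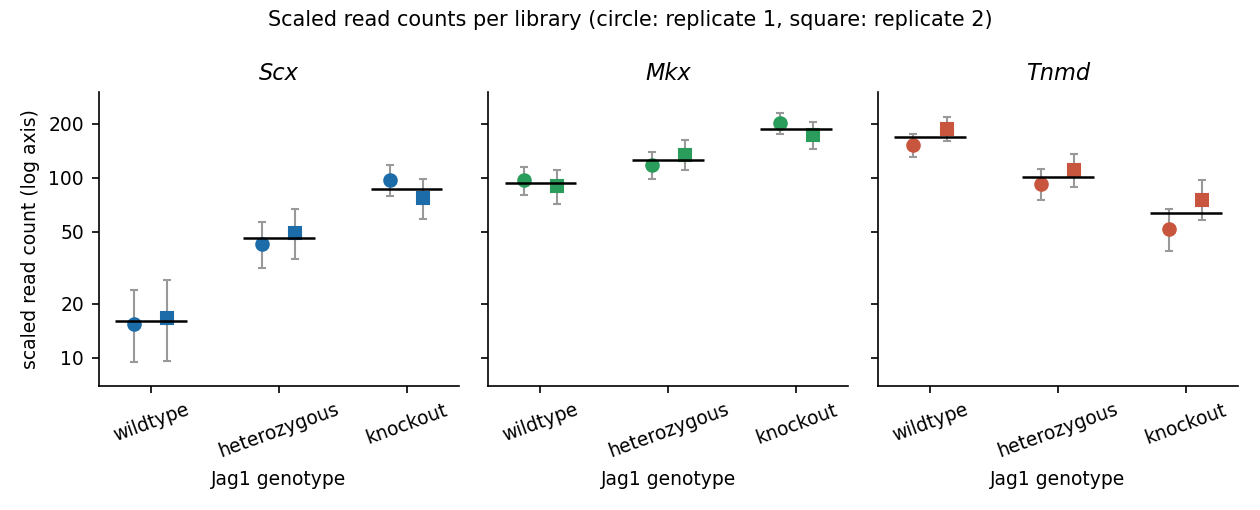
Scaled read counts of Scx, Mkx and Tnmd (log axis) in each of the 6 libraries by Jag1 genotype, with circles for replicate 1, squares for replicate 2, grey bars for exact 95% Poisson intervals and black lines for group means. Scx climbs from 15.5 and 16.7 in wildtype to 97.0 and 77.0 in knockout, Mkx climbs over a narrower range, and Tnmd descends from 152 and 187 to 51.7 and 75.8.

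These calls can be read against all genes. Of 15781 genes tested, 5.42% rose and 7.1% fell in knockout against wildtype, 5.33% rose and 2.74% fell in heterozygous against wildtype (8.07% in either direction), and 4.39% rose and 8.09% fell in knockout against heterozygous. Of the 3 members, 2 rose and 1 fell in the first of these comparisons, and 1 rose in each of the others. Groups that did not overlap were common: knockout was apart from wildtype and higher in 24.8% of genes and lower in 25.4%, heterozygous was apart from wildtype and higher in 28.8% and lower in 26%, and knockout was apart from heterozygous and higher in 25.4% and lower in 25%. All 3 groups were apart in the rising order wildtype, heterozygous, knockout in 4.71% of genes, as for Scx and Mkx, and in the falling order in 3.78%, as for Tnmd. Scx had a larger absolute change in knockout against wildtype than all but 0.450% of genes tested, whereas 3.12% changed more than Tnmd and 7.08% more than Mkx.

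**Figure D2:**
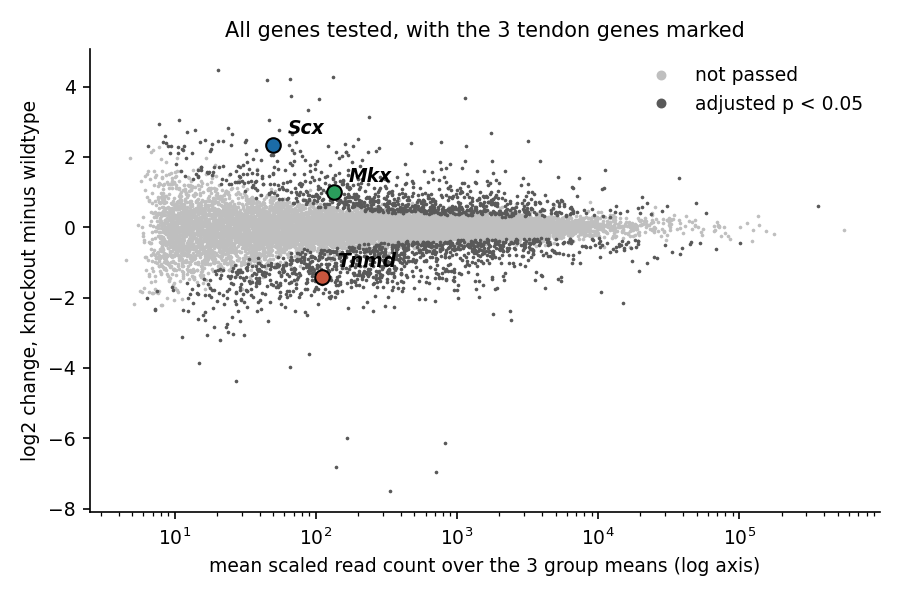
Log2 change in knockout minus wildtype against the mean scaled read count (log axis) of the 15781 genes tested, with genes at an adjusted p under 0.05 in dark grey. Scx at 2.35 has few genes above it, and Mkx at 0.99 and Tnmd at -1.41 lie among other dark points.

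Per kilobase of the deposited gene length, the order of the 3 genes turned over between genotypes. In wildtype, Tnmd was at 125 ± 18.5 scaled counts per kilobase, Mkx at 29.2 ± 1.52 and Scx at 14.2 ± 0.773 (SD, n = 2), and no pair overlapped. In the heterozygous libraries Tnmd was at 74.9 ± 9.65, above the others, while Scx at 40.6 ± 3.99 and Mkx at 39.4 ± 3.75 overlapped. In knockout, Scx was at 76.6 ± 12.4, Mkx at 58.3 ± 6.38 and Tnmd at 47.1 ± 12.6. Scx was then above Mkx in both libraries, and Tnmd at 38.2 and 56.0 overlapped Mkx at 62.9 and 53.8. The authors' deposited RPKM values, which are group means on another scale, were 0.509, 1.05 and 4.50 for Scx, Mkx and Tnmd in wildtype and 2.75, 2.09 and 1.69 in knockout.

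Within single libraries, the ratio of Scx to Tnmd per kilobase was 0.122 and 0.106 in wildtype, 0.554 and 0.531 in heterozygous and 2.24 and 1.21 in knockout libraries. Scx thus went from well under Tnmd in both wildtype libraries to above it in both knockout libraries. The ratio of Scx to Mkx was 0.451 and 0.524, then 1.03 and 1.03, then 1.36 and 1.26 in the same order of libraries. Among all genes tested, 16.0% and 16.7% had a lower level per kilobase than Scx in the wildtype libraries and 48.5% and 43.5% in the knockout libraries. For Tnmd these shares were 55.1% and 60.2% in wildtype and 31.6% and 39.2% in knockout, so none of the 3 genes was among the abundant transcripts of these cells.

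**Figure D3:**
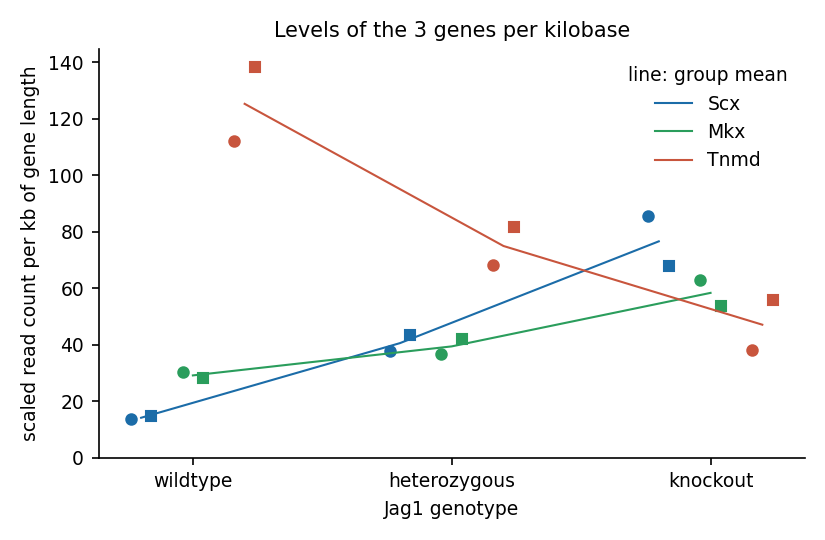
Scaled read counts per kilobase of gene length for Scx, Mkx and Tnmd by Jag1 genotype, with circles for replicate 1, squares for replicate 2 and lines joining group means. Tnmd leads in wildtype at 125 and Scx leads in knockout at 76.6, and the line of Tnmd crosses those of Scx and Mkx between heterozygous and knockout.

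Other regulators used in tendon did not share 1 direction. Of 11 measured tendon regulators other than Scx and Mkx, 3 rose, 1 fell and 7 were not called in knockout against wildtype, with a median log2 change of 0.10 beside 0.00 over all genes. Eya2, a transcriptional coactivator and phosphatase, was at 1.55 and 1.05 in wildtype, at 13.7 and 7.21 in heterozygous and at 52.6 and 46.4 in knockout libraries. Its partner Six2, a homeobox factor of the tendon and kidney mesenchyme, measured 13.2 and 9.41, then 24.6 and 27.7, then 131 and 75.8. Both rose in knockout against wildtype (log2 changes 4.46 ± 0.46 and 3.05 ± 0.33), as did Eya1 (1.37 ± 0.15). Egr2, a zinc finger factor that acts on tendon collagen genes, fell from 276 and 286 to 131 and 86.8 (-1.39 ± 0.20). Sox9, the cartilage master regulator that Scx-positive progenitors also make, was named after its values were seen. It was at 231 and 236 in wildtype, 214 and 188 in heterozygous and 464 and 268 in knockout libraries. Its change did not pass in knockout against wildtype (0.59 ± 0.22, adjusted p = 0.135) and passed in knockout against heterozygous (0.81 ± 0.22, adjusted p = 0.0458, limma). Egr1, a relative of Egr2 named here after its values were seen, measured 4089 and 3752 in wildtype and 4554 and 3031 in knockout and did not pass (-0.08 ± 0.16). Without knockout replicate 2 the count that rose was 6, and without knockout replicate 1 the count that fell was 2. In heterozygous against wildtype only Eya2 passed (2.27 ± 0.45, adjusted p = 0.0149), with 0 calls without wildtype replicate 1, wildtype replicate 2 or heterozygous replicate 1 and 4 higher and 2 lower without either knockout library. In knockout against heterozygous 4 rose and 1 fell, with 2 and 1 higher without heterozygous replicates 1 and 2, 0 lower without heterozygous replicate 1 and 3 lower without knockout replicate 1.

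Of the tendon matrix list, 33 of 38 measured genes were tested, and in knockout against wildtype 7 rose (21.2%), 12 fell (36.4%) and 14 did not pass, with a median log2 change of -0.27. The count that fell changed when single libraries were left out. The tested genes of fibril and fibril-associated collagens, Serpinh1, Lox and P4ha1 either fell or did not pass, and none passed as higher. Those that fell included Col3a1 from 8993 and 9709 to 4752 and 4577 (adjusted p = 0.000105, limma), Col1a2 (-0.63 ± 0.09), the fibril-associated Col14a1 (-1.98 ± 0.17) and Col12a1 (-0.40 ± 0.09), and the collagen chaperone Serpinh1 (-0.51 ± 0.09). The fibril collagens Col5a3 (-1.16 ± 0.16) and Col11a2 (-1.16 ± 0.28) fell too. Named after their values were seen, the fibril collagens Col1a1 (-0.40 ± 0.14), Col5a1 (-0.22 ± 0.13), Col5a2 (0.16 ± 0.08) and Col11a1 (-0.16 ± 0.09), the crosslinking enzyme Lox (-0.06 ± 0.11) and the prolyl hydroxylase subunit P4ha1 (-0.11 ± 0.08) did not pass. Postn, a matricellular protein of collagen-rich tissue, fell from 15158 and 16904 to 4419 and 4458 (-1.85 ± 0.09), and Dcn, a small proteoglycan of collagen fibrils, had a change of -1.02 ± 0.11. The tendon matrix genes that rose were Comp (4.22 ± 0.24), Prg4 (2.43 ± 0.24), Chodl (1.57 ± 0.35), the proteoglycans Prelp (1.25 ± 0.19) and Fmod (1.13 ± 0.16), and the beaded filament collagens Col6a1 (0.76 ± 0.12) and Col6a2 (0.78 ± 0.13). Comp and Prg4 encode matrix proteins of tendon and cartilage alike, and Comp went from 5.42 and 6.27 in wildtype to 63.0 and 64.9 in heterozygous and 139 and 115 in knockout libraries.

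In heterozygous against wildtype, 9 tendon matrix genes rose, 5 fell with 19 uncalled, and in knockout against heterozygous 3 rose and 8 fell, with 22 uncalled. The heterozygous counts fell to 5 higher without any 1 of the wildtype or heterozygous libraries. They fell to 2 and 3 lower without wildtype replicates 1 and 2 and to 3 and 1 lower without heterozygous replicates 1 and 2, and were 14 and 15 lower without knockout replicates 1 and 2. The 3 higher in knockout against heterozygous became 0 without heterozygous replicate 1 or 2 and 7 without knockout replicate 2. Lum, a proteoglycan of collagen fibrils, rose in heterozygous libraries from 128 and 140 to 535 and 533 and measured 122 and 144 in knockout, so it did not follow the order of the members. Dcn, Prelp and Fmod did not follow it either and were highest in heterozygous libraries. Dcn went from 1164 and 1222 in wildtype to 2237 and 2290 in heterozygous and 646 and 535 in knockout. Group means in the same order were 439, 1744 and 1074 for Prelp and 434, 1202 and 964 for Fmod. Kera and Thbs4, which mark differentiated tendon and were named after their values were seen, were at 0 in every library and at 0 to 1.81 scaled counts. A count of 0 allows up to 3 reads per library.

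**Figure D4:**
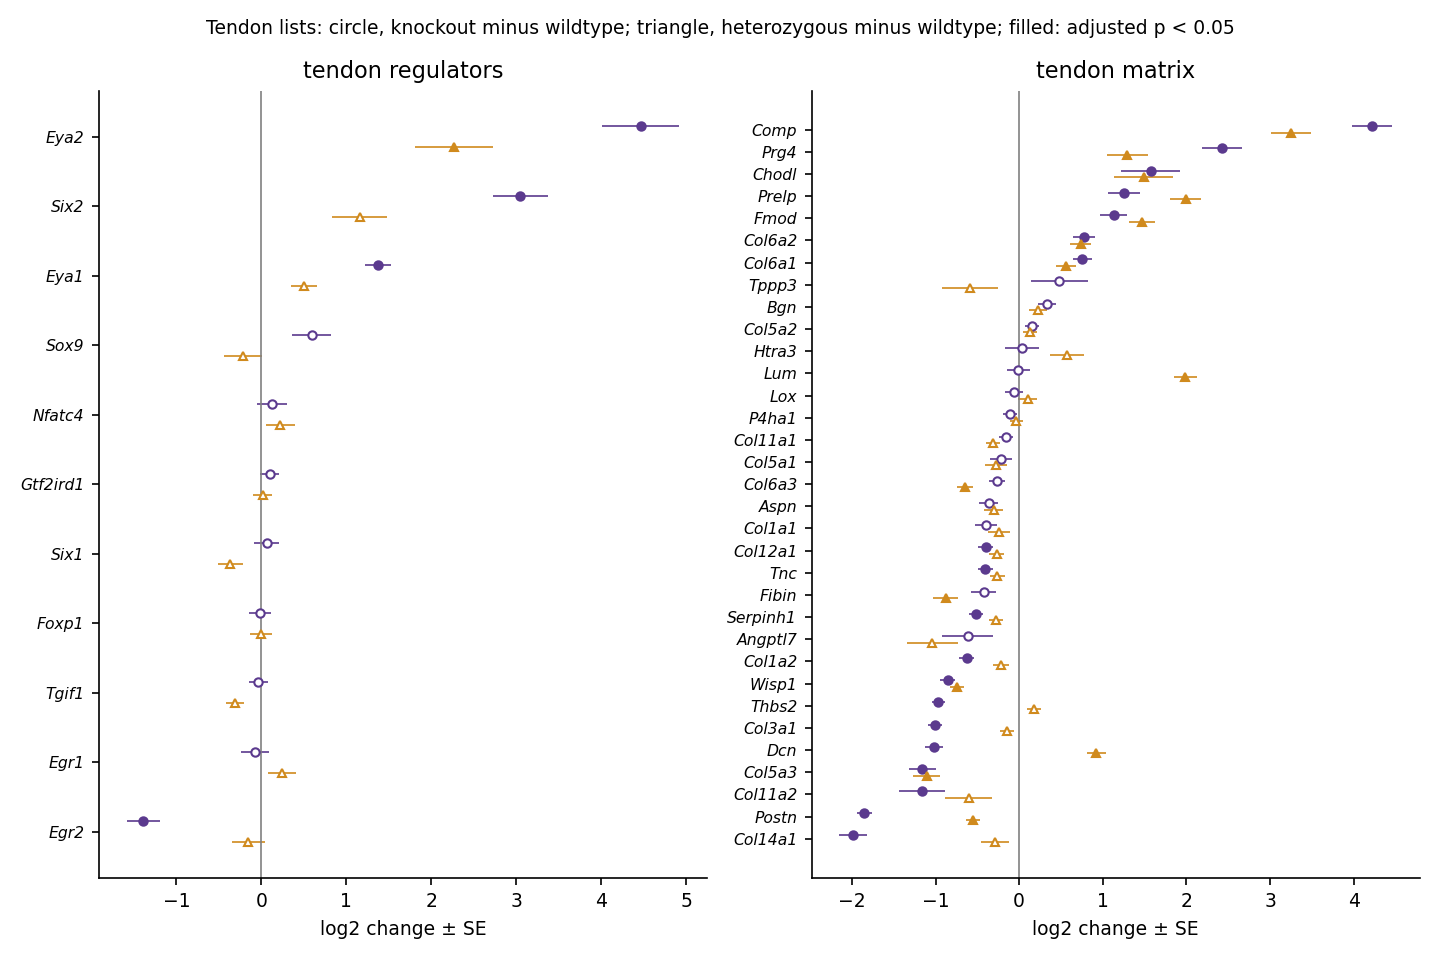
Log2 changes ± SE of the tested tendon regulators (left) and tendon matrix genes (right), with circles for knockout minus wildtype and triangles for heterozygous minus wildtype, filled at an adjusted p under 0.05. Eya2 and Six2 lead the regulators at 4.46 and 3.05, and the matrix genes spread from Col14a1 at -1.98 to Comp at 4.22.

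Relatives of the 3 proteins were read next. Of 13 tested genes of basic helix-loop-helix partners and inhibitors, 1 rose, 1 fell and 11 were not called in knockout against wildtype (median 0.08). Id4, an inhibitor of E proteins, rose by 0.62 ± 0.15, a call lost without any 1 wildtype or heterozygous library and with only the 2 groups compared. Tal1, a factor of blood and endothelial cells, fell by 1.18 on the log2 scale, a call lost without wildtype replicate 1 or 2, with DESeq2 and with only the 2 groups compared. Without knockout replicate 1 the list held 3 higher and 4 lower calls, and without knockout replicate 2 it held 6 higher. The E proteins Tcf3, Tcf4 and Tcf12, with which scleraxis pairs, were named after their values were seen: none passed, with 0.30 ± 0.11, 0.23 ± 0.10 and -0.12 ± 0.09. Tcf15, a basic helix-loop-helix factor closely related to Scx, had 0 reads in every library.

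Of 15 tested TALE homeobox genes, the class of Mkx, 5 rose, 2 fell and 8 were not called in knockout against wildtype (median 0.28). Irx3, which was at 13.9 and 15.7 in wildtype, at 61.1 and 57.7 in heterozygous and at 421 and 224 in knockout libraries, rose by 4.29 ± 0.28, and Irx5 rose by 3.72 ± 0.24. Irx2 and Meis2 rose by 1.12 ± 0.17 and 0.69 ± 0.14, and Tgif2 and Pknox2 fell by 0.51 and 0.68 on the log2 scale. The count that rose was 3 without wildtype replicate 1 or 2 and 8 without knockout replicate 2. The count that fell was 0 without any 1 wildtype or heterozygous library, with no filter on low values, with DESeq2 and with only the 2 groups compared, 1 with quantile normalization and 4 without knockout replicate 1. Of 3 tested genes of the BRICHOS family of Tnmd, Itm2a rose from 213 and 261 to 409 and 390 (0.76 ± 0.13), a call lost without wildtype replicate 1, and the other two did not pass (median 0.07). Lect1, the closest relative of Tnmd, had 0 reads in all 6 libraries.

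Genes of TGF-beta, GDF, BMP and FGF signalling, including inhibitors, were measured too. Of 19 tested genes of TGF-beta and GDF inputs, 7 rose, 2 fell and 10 were not called in knockout against wildtype (median 0.08). The co-receptor Tgfbr3 rose by 0.75 ± 0.09, Nog, a BMP antagonist, by 1.60 ± 0.20 and Bmp4, a ligand, by 0.95 ± 0.14, while Gdf6, a ligand of joints and tendons, fell from 301 and 334 to 126 and 141 (-1.25 ± 0.16). Gdf7, another GDF ligand, rose at low levels, from 5.42 and 0 in wildtype to 20.8 and 19.6 in knockout (3.06 ± 0.79). The ligand Tgfb1 fell by 0.55 on the log2 scale. The count that fell was 1 without any 1 wildtype or heterozygous library or with only the 2 groups compared, and 4 without knockout replicate 2, and the count that rose was 4 and 3 without wildtype replicates 1 and 2. Of 16 tested genes of FGF and ERK inputs, 4 rose, 5 fell and 7 did not pass (median -0.16). Fgf2 rose by 1.12 ± 0.10, Fgf10 by 0.94 ± 0.12 and Fgfr2 by 0.89 ± 0.09. The receptor Fgfr1 fell by 0.79 on the log2 scale. Inhibitors of ERK signalling did not share 1 direction: Dusp6, Spry1, Spry2 and Spry4 fell by 0.85, 0.51, 0.48 and 0.41 on the log2 scale, Spred2 rose by 0.42 ± 0.10, and Spred1 was at -0.36 ± 0.13 and did not pass. The count that fell was 1 and 2 without wildtype replicates 1 and 2.

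Markers of other cells that Scx, Mkx or Tnmd could come with were set beside the members. Of 7 tested cartilage genes, 4 rose and 3 were not called in knockout against wildtype (median 1.91), and the summed level of the 13 measured was 179 to 185 in wildtype, 373 to 381 in heterozygous and 711 to 725 in knockout libraries, the order of Scx and Mkx. Sox5, Sox6, Col2a1 and Matn3 were the cartilage genes that rose in that comparison, while Acan, Col9a3 and Matn4 did not pass. Among cartilage genes not tested, Col9a1, Col9a2, Hapln1 and Ucma were at 0 to 4.89 in every library. Of 5 tested sclerotome genes, Pax1 and Foxc1 rose (1.49 ± 0.17 and 0.85 ± 0.12) and 3 did not pass (median 0.79), with sums of 2305 to 2544, 2852 to 2934 and 2964 to 3934. Of 12 smooth muscle genes, 8 fell and 4 did not pass (median -0.94), with sums of 203859 to 219997 in wildtype, 183761 to 187079 in heterozygous and 146602 to 159818 in knockout, the order of Tnmd. Acta2 and Tagln made up most of the smooth muscle sums in every library, and Tagln passed in no comparison. Foxc1 and Foxc2 made up most of the sclerotome sums, and Foxc2 passed in no comparison. Of counts that were 0 in these lists, 1 sclerotome gene fell without knockout replicate 1, and 1 cartilage gene fell and 2 smooth muscle genes rose without knockout replicate 2. The part of cartilage, sclerotome or smooth muscle transcripts in the differences of the members was not tested.

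Of the remaining marker lists, the summed endothelial level fell in the order of Tnmd, and its part in the Tnmd difference was not tested. In wildtype most of that sum was Flt1, which fell in knockout against wildtype. Emcn also fell, while Kdr rose, and the median log2 change of the 5 tested endothelial genes was 0.43. Markers of skeletal muscle, to which tendons attach, summed to 12553 to 14478 in wildtype, 5924 to 6104 in heterozygous and 7897 to 8535 in knockout libraries. Acta1 and Des made up most of these sums in every library, and Des was also counted in the smooth muscle list. The muscle regulators Myod1, Myog, Myf5 and Myf6 were at 0 to 2.72, and of 6 tested genes 2 fell, Des and Neb, a count that was 1 without any 1 wildtype or heterozygous library, with no filter, with quantile normalization, with DESeq2 and with only the 2 groups compared. Macrophage and leukocyte markers summed to 31869 to 31962, 61407 to 66084 and 12641 to 13480, and all 16 fell in knockout against wildtype. Fibroblast and adventitial markers summed to 11026 to 11447, 13648 to 13713 and 9176 to 10025, with 1 higher (2 without knockout replicate 1) and 3 lower of 11 tested. Epithelial and mesothelial markers summed to 3843 to 3954, 1535 to 1636 and 2737 to 3076, with 1 higher and 3 lower of 8 (5 lower without knockout replicate 2). Neural and Schwann cell markers summed to 1050 to 1100, 807 to 819 and 1304 to 1457, with 2 higher (1 without wildtype replicate 1) and 1 lower (2 without knockout replicate 1) of 6 tested. Endothelial markers summed to 3967 to 3973, 1918 to 2185 and 1642 to 1876, with 1 higher and 2 lower of 5, and the vessel lining genes Pecam1 and Cldn5 were at 0 to 9.12. Erythroid markers summed to 4.81 to 17.1 in every library, and the 1 tested, Alas2, did not pass.

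By the distance between log2 profiles over the 6 libraries, each centred on its own mean, the 5 genes nearest to Scx among 11188 candidates were Col8a2, Ano1, Selp, Sp7 and Kirrel3, at distances of 0.264 to 0.432. They encode a short chain collagen, a calcium-activated chloride channel, an adhesion molecule of platelets and endothelium, a bone transcription factor and a membrane adhesion protein. Col8a2 averaged 50.6 ± 0.650 (SD, n = 2) in wildtype, then 136 ± 1.44 in heterozygous and 230 ± 42.2 in knockout libraries (r = 0.997 with Scx over 6 libraries). Nearest to Mkx were Irs1, an adaptor of insulin signalling, the sialyltransferase St6gal1, the phosphatase Dusp10, the GTPase regulator Arhgap6 and the cyclin Ccnd1, at distances of 0.106 to 0.207. Irs1 measured 1517 ± 75.9, 2005 ± 67.5 and 2969 ± 218 in the same groups (r = 0.995 with Mkx).

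Nearest to Tnmd were Cyb561, an electron carrier of vesicle membranes, Myocd, the coactivator that drives smooth muscle genes, Nppb, a natriuretic peptide, Ptprz1, a receptor phosphatase, and C1ql3, a secreted C1q-like protein. Their distances were 0.274 to 0.467. Myocd averaged 64.8 ± 2.97 (SD, n = 2) in wildtype, then 34.5 ± 2.28 in heterozygous and 25.7 ± 6.86 in knockout libraries (r = 0.979 with Tnmd). These genes were chosen for likeness among many, the 6 libraries form 3 groups, and high r is therefore a description of the choice.

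**Figure D5:**
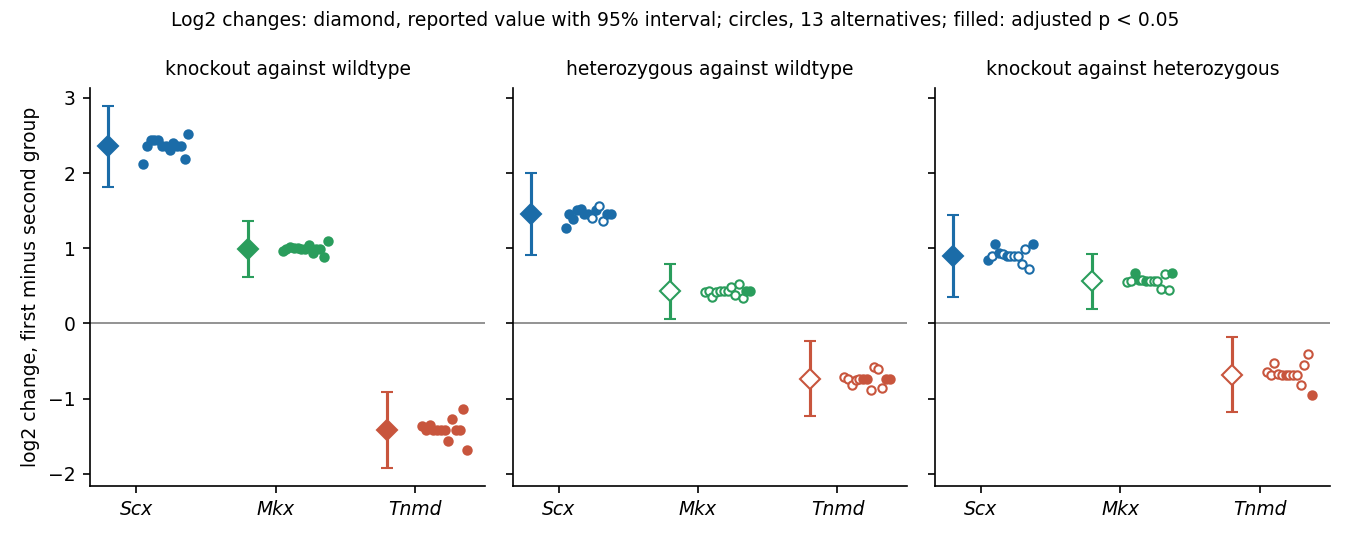
Log2 changes of Scx, Mkx and Tnmd in the 3 comparisons, with diamonds for reported values and their 95% intervals and circles for the 13 alternatives, filled at an adjusted p under 0.05. All symbols are filled in knockout against wildtype, while filled and open symbols mix in the smaller steps. All symbols of a gene lie on 1 side of 0 in every comparison. Fits that leave out 1 library could not cross 0, since the groups did not overlap.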

How the data were processed

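The deposited table gives, per library, a normalized signal deposited by the authors. Every value was a whole multiple of 1 step per library (100% of values within 0.001 of a read), as read counts divided by 1 size factor would be, so reads were recovered. It also gives RPKM, which the authors deposited as group means. TopHat2 2.0.4, HTSeq 0.5.4p3, DESeq 1.16.0 and mm9 are named, without roles, per the submitters' processing notes.

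The 15781 genes that reached 10 scaled units in 2 or more libraries were tested with limma 3.58.1 (R 4.3.3) on log2(value + 1), which understates changes of low genes, using a mean trend in the variance. The fit took all 6 libraries together and had 3 residual degrees of freedom beside 6.17 from the prior. Benjamini-Hochberg adjustment ran over all genes tested, and calls needed an adjusted p under 0.05. The limma fit was also run on simulated counts with the same spread in every group, so the wider spread of the knockout libraries was not simulated. Alternatives were a pseudocount of 5, no filter, quantile normalization, edgeR 4.0.16 and DESeq2 1.42.0 on recovered reads, a replicate block, a fit of only the 2 groups compared, and leaving out each library. On recovered reads edgeR called 918 genes higher and 1122 lower in knockout against wildtype.

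The members and the 18 gene lists were chosen with earlier results of these data known. Named genes are the members, Jag1, annotated neighbours, the 5 nearest profiles per member with a group mean of 50 or more, and list members that passed or were among the 4 smallest p of their list in knockout against wildtype. Other list genes, such as Lum, Tcf15, Lect1, Acta2 and markers at or near 0, were named after their values were seen. The promoter printed, of Tnmd, is from RefSeq. The values of 1 list gene are not reported here.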

Additional observations from a re-analysis of the deposited data

How the results depend on the processing

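All 9 results on Scx, Mkx and Tnmd kept their direction in 13 alternatives each, and 94 of these 117 values kept their side of the threshold. Most of these directions could not reverse. The groups of each member did not overlap, so leaving out 1 library could not change the sign. The fits with no filter, with the replicate block and with only the 2 groups compared repeat the same log2 change by construction. Scx in knockout against heterozygous lost its call with no filter on low values (log2 change 0.90, adjusted p = 0.0844), with only the 2 groups compared (0.90, 0.0546) and with DESeq2 (0.92, 0.125). Mkx in the same comparison passed with quantile normalization (0.67, 0.0252), edgeR (0.58, 0.0459) and the replicate block (0.56, 0.0498). Tnmd passed with the replicate block in heterozygous against wildtype (-0.73, adjusted p = 0.0252) and in knockout against heterozygous (-0.68, 0.0257), and with only the 2 groups compared in the former (-0.73, 0.000595). The cause was not tested.

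Leaving out 1 library each gave log2 changes of 1.36 to 1.56 (Scx, heterozygous against wildtype), 0.73 to 1.06 (Scx, knockout against heterozygous), 0.33 to 0.53 and 0.45 to 0.67 (Mkx, in the same order) and -0.88 to -0.58 and -0.95 to -0.41 (Tnmd).

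Without 1 library each, genes passing numbered 353 to 2783 higher and 501 to 2830 lower in knockout against wildtype (856 and 1121 with all libraries), 215 to 1757 and 98 to 1256 in heterozygous against wildtype (841 and 433), and 174 to 2747 and 643 to 2926 in knockout against heterozygous (692 and 1276). Tendon regulators passing numbered 3 to 6 higher and 1 to 2 lower, 0 to 4 and 0 to 2, and 1 to 6 and 0 to 3 in the same order. Tendon matrix genes passing numbered 5 to 11 higher and 1 to 15 lower in heterozygous against wildtype and 0 to 7 higher in knockout against heterozygous. A group left with 1 library is assumed to vary like the others. With only the 2 groups compared, 1764 genes were higher and 1268 lower in heterozygous against wildtype, with 4 tendon regulators higher, 2 lower and 15 matrix genes lower, and 400 genes were higher in knockout against heterozygous. Quantile normalization gave 5 matrix genes higher there.

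The replicate numbers are not tied to a shared litter or day by the labels. Deviations of same-numbered libraries correlated at 0.20, 0.17 and 0.14 in the 3 comparisons, over 2 pairs each. The replicate block raised the calls to 1136 higher and 1351 lower, 1024 and 548, and 1000 and 1510, with 3 tendon regulators higher in heterozygous against wildtype. Depth limits Scx most, with 16 and 20 reads in wildtype.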
